A study of Mus musculus with 5 samples.

Results

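The genes described here are the 39 members of a list made up of 20 genes for cytosolic aminoacyl-tRNA synthetases, 3 genes for non-enzymatic partners of the cytosolic multi-synthetase complex (Aimp1, Aimp2 and Eef1e1) and 16 genes for mitochondrial synthetases, whose symbols end in 2. The list is defined by name and function, without a threshold on any value. They stood among 54838 genes listed for each library, of which 14825 passed a filter on low reads and were tested. Of the 39, 38 were tested, and Lars2 was left out because its decimal point could not be placed.

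RNA was measured in N2a cells, a line derived from a mouse neuroblastoma, after knockdown of Ewsr1, which encodes an RNA- and DNA-binding protein. The siEwsr1 group (n = 3 libraries) was transfected with an siRNA against Ewsr1, and the siCtrl group (n = 2 libraries) with a control siRNA. In both groups 50000 cells received a double pulse of lipid transfection and were collected 24 h after the last pulse. Each library started from 2 µg of total RNA that was depleted of ribosomal RNA, and the kit kept the strand of each read. No label says whether the libraries of a group came from separate cultures. The p-values therefore measure no more than how these libraries differ, which may be technical variation. An siRNA lowers its target without removing it, and all the libraries come from a single tumour line.

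Aminoacyl-tRNA synthetases join each amino acid to the tRNA that carries its anticodon, and so set which amino acid a codon yields. They fall into class I and class II, which have unrelated catalytic folds. Cytosolic and mitochondrial translation mostly use enzymes from separate genes, although Gars and Kars each give rise to both forms. In animal cells several cytosolic synthetases sit in one complex held together by Aimp1, Aimp2 and Eef1e1. Many genes of the cytosolic enzymes are known targets of Atf4, the transcription factor of the amino acid and stress response.

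The libraries held 15045774, 21339459 and 17475740 counted reads in siEwsr1 replicates 1, 2 and 3, and 15766280 and 17314511 in siCtrl replicates 1 and 2. The unit of level is RPKM, in which reads are divided by the exonic length of the gene and by the counted reads of the library. Fold changes are log2 differences of siEwsr1 over siCtrl after scaling of the libraries, each with its standard error (SE), and a gene is called where limma's adjusted p is under 0.05. On the first principal component, which took 45.2% of the variance, siEwsr1 replicates 1 and 2 stood at -16.5 and -33.7, siEwsr1 replicate 3 at 0.18, and the siCtrl libraries at 21.2 and 28.8. siEwsr1 replicate 3 therefore lay between the other siEwsr1 libraries and siCtrl, and results are given with and without it. The 14 neuroblastoma and neuronal markers summed to 1006 to 1129 RPKM in siEwsr1 and 942 to 960 RPKM in siCtrl libraries, with Nefl and Nefm at or near 0. The 9 fibroblast and mural markers summed to 1.22 to 1.37 RPKM in siEwsr1 and 3.28 to 3.47 RPKM in siCtrl libraries, most of it Acta2, while Col1a1 and Col1a2 were at or near 0 and Col3a1 and Lum were listed at 0. The marker lists of glia, leukocytes and endothelium each summed to 1.42 RPKM or less in every library. Fewer cells of a type and less RNA per cell cannot be told apart in these bulk samples, and the part of either in the results below was not tested.

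Ewsr1 (ENSMUSG00000009079, chromosome 11, 5069689 to 5099266, minus strand, GRCm38) had 35.7, 36.3 and 37.6 RPKM in the siEwsr1 libraries, against 71.7 and 72.3 RPKM in the siCtrl libraries. The knockdown was of like depth in every siEwsr1 library, siEwsr1 replicate 3 included. The log2 fold change was -0.96 (SE 0.08, limma adjusted p = 7.23e-04), so Ewsr1 fell by 48.7%.

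Most of the 20 cytosolic synthetase genes had slightly lower levels in the siEwsr1 than in the siCtrl libraries, but only Sars passed the test. The log2 fold change was below 0 for 17 of the 20 and its median was -0.14, against -0.01 over all 14825 genes tested. In 12 of the 20 every siEwsr1 library lay below both siCtrl libraries, and in 1, Hars, every siEwsr1 library lay above both. Over all genes tested the libraries separated this way in 20.5% for lower and 19.2% for higher siEwsr1 levels. By the limma test 1 of 20 was called lower and 0 higher, where 2.78% of all genes were called lower and 2.41% higher. At an unadjusted p under 0.05, 8 of 20 were lower and 0 higher, where 11.3% of all genes were lower and 10.7% higher.

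**Figure D1:**
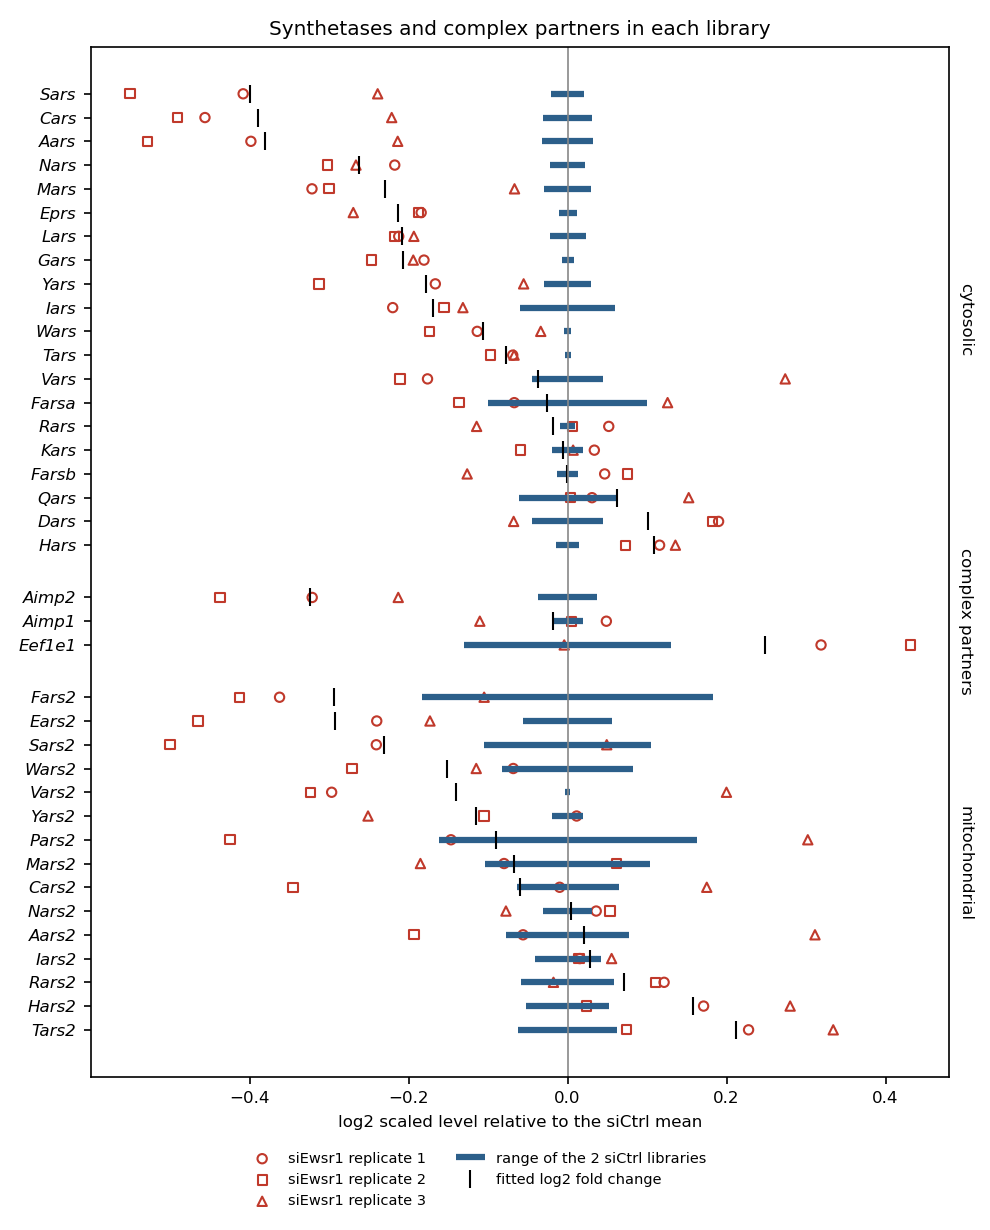
Each of the 38 tested members in each siEwsr1 library (red symbols), as the log2 scaled level relative to the siCtrl mean, with the range of the siCtrl libraries as a blue bar and the fitted log2 fold change as a black tick. Sars, Cars and Aars stand farthest to the left among the cytosolic genes, with siEwsr1 replicate 3 nearest to siCtrl in each, and the mitochondrial genes lie on both sides of 0.

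Sars, whose product loads serine on its tRNA and also on selenocysteine tRNA, the first step of selenocysteine synthesis, had the largest absolute log2 fold change of the 38 tested members. It had 65.8, 59.5 and 76.0 RPKM in the siEwsr1 libraries, against 87.3 and 90.6 RPKM in the siCtrl libraries. All siEwsr1 libraries were below both siCtrl libraries, with siEwsr1 replicate 3 closest to them. The gene (ENSMUSG00000068739, chromosome 3, 108424865 to 108445209, minus strand) fell by 0.40 on the log2 scale (SE 0.10, limma adjusted p = 0.0493), which means that it fell by 24.2%. This call stood at the edge of the threshold: over 16 alternative settings the adjusted p ranged from 6.07e-06 to 0.435, and Sars was called in 6 of them. It also rested on the choice to model the variance by read depth, which was made after the number of calls had been seen: with the variance modelled by RPKM level, the adjusted p was 0.117 and no member was called. No member was called when any one of siEwsr1 replicate 1, siEwsr1 replicate 2, siCtrl replicate 1 or siCtrl replicate 2 was left out, with limma adjusted p of 0.2195, 0.115, 0.309 and 0.435 for Sars.

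Cars and Aars, which charge cysteine and alanine tRNA, came next among the cytosolic genes. Cars (chromosome 7, 143557230 to 143600090, minus strand) had 19.1, 18.6 and 23.1 RPKM in the siEwsr1 libraries, against 26.1 and 27.4 RPKM in the siCtrl libraries, a log2 difference of -0.39 (SE 0.10, limma adjusted p = 0.0542). Aars (chromosome 8, 111033144 to 111057664, plus strand) had 73.8, 67.4 and 86.2 RPKM in siEwsr1, against 96.6 and 101.8 RPKM in siCtrl, a log2 difference of -0.38 (SE 0.10, limma adjusted p = 0.0591). The groups did not overlap for either gene, and both missed the threshold. Aars shares 1326 bases of its span, on the same strand, with Exosc6, an exosome subunit, and how reads there were assigned is not given in the sources used here.

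Nars and Mars, for asparagine and methionine, were the other cytosolic genes among the 10 members with the largest absolute log2 fold changes. Nars (chromosome 18, 64499647 to 64516652, minus strand) had 199.3, 187.7 and 197.9 RPKM in siEwsr1 libraries, against 238.7 and 233.4 RPKM in siCtrl libraries. Its siEwsr1 libraries, replicate 3 among them, lay close together and below both siCtrl libraries (log2 difference -0.26, SE 0.08, limma adjusted p = 0.0943). Mars, whose product belongs to the complex, had 79.1, 80.2 and 96.9 RPKM in siEwsr1 libraries, against 102.4 and 99.0 RPKM in siCtrl libraries (log2 difference -0.23, SE 0.10, limma adjusted p = 0.206). For Mars siEwsr1 replicate 3 reached nearly the siCtrl levels. Mars and the stress gene Ddit3 lie on opposite strands and share 68 bases of their spans, and the strand setting of the counting is not given in the sources used here.

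**Figure D2:**
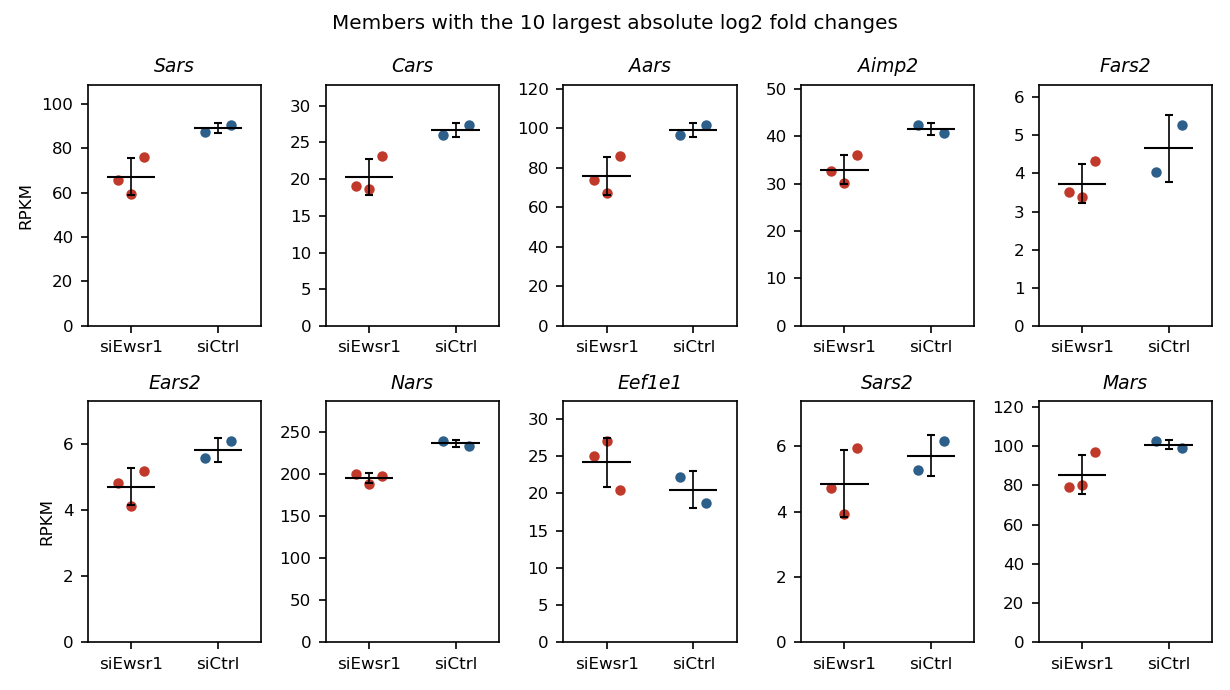
RPKM of the members with the 10 largest absolute log2 fold changes, one panel per gene with an axis from 0, in the siEwsr1 libraries (red, n = 3) and the siCtrl libraries (blue, n = 2), with mean and SD as black bars. Sars, Cars, Aars, Aimp2, Ears2, Nars and Mars show siEwsr1 points below both siCtrl points, while Fars2, Eef1e1 and Sars2 overlap.

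The other cytosolic genes with separated libraries differed less. Eprs, the fused glutamate and proline enzyme, averaged 58.7 ± 1.05 RPKM in siEwsr1 and 68.8 ± 1.14 RPKM in siCtrl libraries (SD, n = 3 and 2). Lars, for leucine, averaged 107.9 ± 2.65 RPKM in siEwsr1 and 125.8 ± 2.12 RPKM in siCtrl libraries. Gars, for glycine, the most abundant member, averaged 211.4 ± 6.95 RPKM in siEwsr1 and 246.4 ± 3.17 RPKM in siCtrl libraries. Their log2 differences were all -0.21, with limma adjusted p of 0.155 to 0.164, and in contrast to Sars their siEwsr1 libraries showed little spread. Yars (tyrosine), Iars (isoleucine), Wars (tryptophan) and Tars (threonine) had log2 differences of -0.18, -0.17, -0.11 and -0.08 with no overlap of the groups.

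The remaining cytosolic genes showed no common direction. Hars (histidine) had 75.2, 72.9 and 78.3 RPKM in siEwsr1 libraries, against 71.2 and 70.3 RPKM in siCtrl libraries (log2 difference 0.11, SE 0.08, limma adjusted p = 0.486). The log2 differences of Dars (aspartate) and Qars (glutamine) were 0.10 and 0.06. Rars (arginine), Kars (lysine), Farsb and Farsa (the subunits of the phenylalanine enzyme) and Vars (valine) lay between -0.04 and 0.00. In Vars siEwsr1 replicate 3 stood apart, with 51.2 RPKM, against 36.5 and 35.6 RPKM in siEwsr1 replicates 1 and 2 and 40.6 and 43.5 RPKM in the siCtrl libraries. None of these 8 genes was called.

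The values were sorted by structural class and by membership of the complex, as a description. The 9 class I cytosolic genes other than Eprs had a median log2 fold change of -0.17, with 6 separated downwards. The 10 class II genes had a median of -0.05, with 5 separated downwards and 1 upwards. The 8 enzymes of the complex had a median of -0.09, and the 12 outside it -0.14, with 4 and 8 genes separated downwards. Over all genes tested 20.5% separated downwards and 19.2% upwards. Genes with little change and genes with larger differences occurred in each of these subsets.

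The 3 non-enzymatic partners of the complex did not move together. Aimp2, its central scaffold, had 32.6, 30.0 and 36.1 RPKM in siEwsr1 libraries, against 42.4 and 40.6 RPKM in siCtrl libraries (log2 difference -0.32, SE 0.10, limma adjusted p = 0.0942). All siEwsr1 libraries of Aimp2 lay below siCtrl. Its span shares 1548 bases with Eif2ak1 on the opposite strand, and Eif2ak1 had a log2 difference of -0.05. Eef1e1, an elongation-factor-like partner, had 25.0, 27.0 and 20.5 RPKM in siEwsr1 libraries, against 22.2 and 18.7 RPKM in siCtrl libraries (log2 difference 0.25, SE 0.14, limma adjusted p = 0.310). The groups overlapped for Eef1e1, since siEwsr1 replicate 3 fell between the siCtrl libraries. Aimp1 averaged 26.5 ± 1.12 RPKM in siEwsr1 and 27.1 ± 0.356 RPKM in siCtrl libraries, a log2 difference of -0.02.

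The 15 tested mitochondrial synthetase genes gave no called gene and scattered around 0. Their median log2 fold change was -0.07, with 9 below 0 and 6 above. By limma 0 of 15 were called in either direction, where 2.78% of all genes were called lower and 2.41% higher. At an unadjusted p under 0.05, 1 of 15 was lower and 0 higher, where 11.3% of all genes were lower and 10.7% higher. Called by limma-voom on the recovered reads were likewise 0. The libraries separated in 1 gene downwards, Ears2, and in 1 upwards, Tars2, where 20.5% and 19.2% of all genes tested did so. In RPKM these genes had medians of 5.29, 4.31 and 5.94 in the siEwsr1 libraries and 5.35 and 6.10 in the siCtrl libraries, against 65.5, 63.0 and 67.7 in siEwsr1 and 69.6 and 70.0 in siCtrl libraries for the cytosolic genes. Pars2, the lowest, had 78 reads in siEwsr1 replicate 1.

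Ears2, for glutamate, had 4.84, 4.12 and 5.21 RPKM in siEwsr1 libraries, against 5.59 and 6.10 RPKM in siCtrl libraries (log2 difference -0.29, SE 0.12, limma adjusted p = 0.203). Fars2, for phenylalanine, had 3.50, 3.38 and 4.32 RPKM in siEwsr1 libraries, against 4.04 and 5.28 RPKM in siCtrl libraries (log2 difference -0.29, SE 0.15, limma adjusted p = 0.277). Sars2, for serine, had 4.71, 3.92 and 5.94 RPKM in siEwsr1 libraries, against 5.26 and 6.15 RPKM in siCtrl libraries (log2 difference -0.23, SE 0.17, limma adjusted p = 0.460). In all of them siEwsr1 replicate 2 was the lowest library and replicate 3 the highest of siEwsr1, and for Fars2 and Sars2 replicate 3 lay above a siCtrl library.

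Tars2, for threonine, averaged 8.99 ± 0.940 RPKM in siEwsr1 and 7.80 ± 0.526 RPKM in siCtrl libraries (log2 difference 0.21, SE 0.11, limma adjusted p = 0.274), although siEwsr1 replicate 2, at 8.05 RPKM, was below siCtrl replicate 2, at 8.17 RPKM, before scaling. Hars2 had a log2 difference of 0.16. Hars and Hars2 are neighbours on chromosome 18 that point away from each other and share 198 bases of their spans, and both lay above 0. Rars2, Iars2, Aars2 and Nars2 had log2 differences of 0.07, 0.03, 0.02 and 0.00. Cars2, Mars2, Pars2, Yars2, Vars2 and Wars2 ran over -0.06, -0.07, -0.09, -0.11, -0.14 and -0.15. Lars2 was recovered with odds of 3.08 for its decimal reading, under the minimum of 20 set here, so no level is given for it.

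The spread between siEwsr1 libraries differed from member to member. The SD of the log2 levels over the siEwsr1 libraries had a median of 0.08 for cytosolic genes and 0.13 for mitochondrial genes, and the siCtrl libraries differed by medians of 0.04 and 0.12. siEwsr1 replicate 3 was the library farthest from the middle one in 13 of 20 cytosolic and 9 of 15 mitochondrial genes. The SD was largest for Pars2 (0.37), Vars2 (0.29), Sars2 (0.27) and Vars (0.27), in each of which siEwsr1 replicate 3 was the highest siEwsr1 library. At the other end Lars had an SD of 0.01.

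With siEwsr1 replicate 3 left out, which leaves 2 libraries in each group, many more genes passed the test. This library was singled out from these same values because it lay nearest to siCtrl. Leaving it out therefore tends to widen the gap between the groups, and the calls below are no separate support. Leaving out siEwsr1 replicate 1 or replicate 2 instead gave 0 called members. Of the 23 cytosolic and partner genes, 12 were then called lower and 2 higher by limma, while 13.0% of the 14474 genes tested were called lower and 12.9% higher. The genes called lower were Aars, Cars, Sars, Aimp2, Mars, Nars, Yars, Lars, Gars, Vars, Iars and Eprs, with log2 fold changes between -0.19 and -0.48. Those called higher were Eef1e1 at 0.37 and Dars at 0.19. Of the 15 mitochondrial genes, Fars2 (-0.39), Ears2 (-0.35) and Vars2 (-0.31) were called lower and none higher.

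The medians were then set out library by library. Relative to the siCtrl mean, the median log2 difference of the cytosolic genes was -0.17, -0.18 and -0.09 in siEwsr1 replicates 1, 2 and 3, and the siCtrl libraries differed by 0.01. For the mitochondrial genes it was -0.06, -0.19 and 0.05 in siEwsr1, and the siCtrl libraries differed by 0.12. All 3 siEwsr1 libraries thus had a cytosolic median below 0 by more than the siCtrl libraries differed, and the mitochondrial medians did not keep one direction. The cytosolic median was below the mitochondrial one in siEwsr1 replicates 1 and 3, with differences of -0.12 and -0.14, and above it by 0.01 in siEwsr1 replicate 2. For the group fold change the medians differed by -0.07. The siCtrl libraries themselves differed by -0.12 in this measure, so the difference between the compartments was smaller than the spread between controls.

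**Figure D3:**
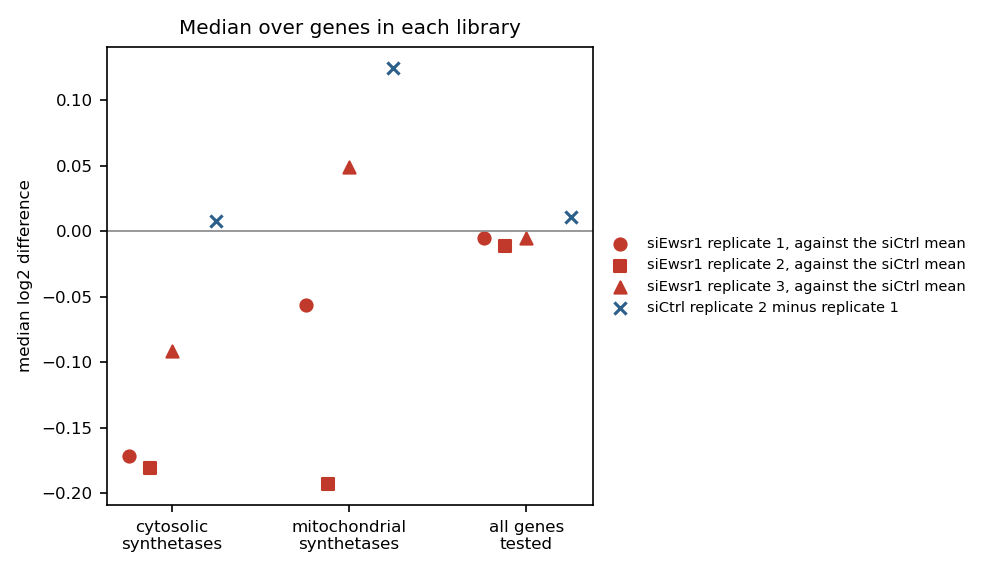
Median log2 difference over the 20 cytosolic synthetase genes, the 15 tested mitochondrial synthetase genes and all 14825 genes tested, for each siEwsr1 library against the siCtrl mean (red) and for siCtrl replicate 2 minus replicate 1 (blue cross). The cytosolic medians of siEwsr1 are all below 0, while those of the mitochondrial genes run over -0.19 to 0.05 and the medians of all genes stay near 0.

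Cytosolic and mitochondrial enzymes for the same amino acid were compared in 16 pairs, formed from 15 cytosolic and 15 mitochondrial genes, where Eprs and Fars2 each enter a pair more than once. In level the cytosolic gene was always the higher one, by a median of 10.1-fold in siEwsr1 and 10.7-fold in siCtrl libraries. The ratio was smallest for Yars and Yars2, at 1.65 in siEwsr1 and 1.72 in siCtrl, and largest for Nars and Nars2, at 37.3 in siEwsr1 and 44.9 in siCtrl. In fold change the cytosolic gene was the lower one in 11 of the 16 pairs, with a median difference of -0.11 on the log2 scale. The differences ran over -0.40 for Aars and Aars2 to 0.29 for Farsb and Fars2, and no test was made of the pairs, since members are not replicates.

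**Figure D4:**
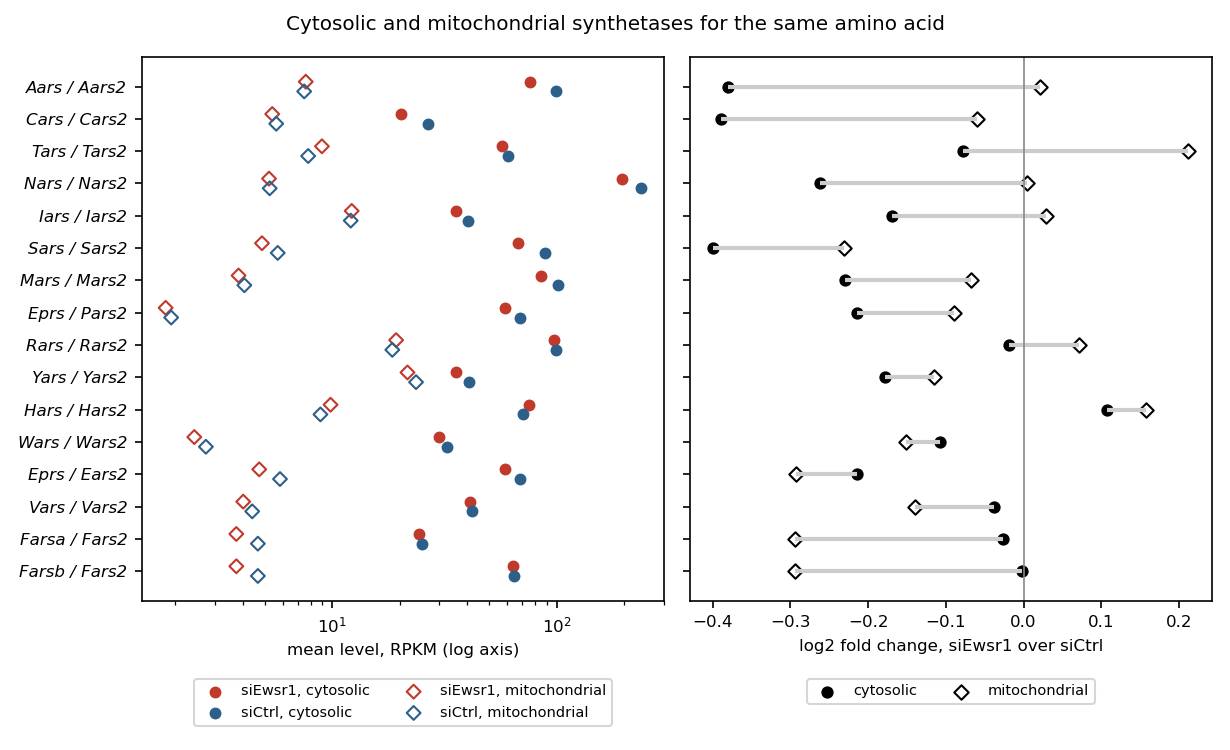
The 16 pairs of cytosolic (circles) and mitochondrial (diamonds) synthetase genes for the same amino acid, with mean RPKM on a log axis at left (siEwsr1 red, siCtrl blue) and log2 fold changes of siEwsr1 over siCtrl at right. Circles lie to the right of diamonds in level in every pair, and to the left in fold change in 11 pairs.

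Promoters were read for the 30 members found at their own locus in the RefSeq promoter table (GRCm38.p6, 250 bases before to 50 after each start), and searched on both strands for motifs of factors tied to this gene family. TGATGNAA, the core of the composite element bound by Atf4 with its partners, stood in 5 of 13 cytosolic promoters, 0 of 14 mitochondrial and 0 of 3 partner promoters, against 3.97% of all 32851 promoters. All its matches in the members are shown, and all fall in cytosolic genes. Capitals mark the motif or its reverse complement, TTNCATCA, read 5′ to 3′ on the strand of the gene.
Aars, first match (chr8:111033714-111033753, plus strand): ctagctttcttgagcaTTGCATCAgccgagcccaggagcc
Aars, second match (chr8:111033835-111033874, plus strand): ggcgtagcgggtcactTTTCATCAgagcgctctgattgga
Gars (chr6:55037955-55037994, plus strand): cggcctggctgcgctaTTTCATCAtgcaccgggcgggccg
Iars (chr13:49682121-49682160, plus strand): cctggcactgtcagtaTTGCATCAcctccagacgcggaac
Tars (chr15:11399650-11399689, minus strand): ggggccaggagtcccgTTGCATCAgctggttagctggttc
Yars (chr4:129189890-129189929, plus strand): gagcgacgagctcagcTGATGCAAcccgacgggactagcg

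In these 5 genes every siEwsr1 library lay below both siCtrl libraries, and their median log2 fold change was -0.18. The 8 cytosolic genes whose promoter held no match had a median of -0.02, and 3 of them separated downwards, among them Sars, the called gene. Over all genes tested 20.5% separated downwards, and of all 20 cytosolic genes 12 did. Of the cytosolic genes with no promoter in the table, Cars, Lars, Nars and Wars separated downwards. Hars separated upwards, and Rars and Vars overlapped. Whether the motif bears on these levels was not tested. None of the 5 was called by limma. A match is a run of letters and not a shown binding site, and no match of one motif shared bases with a match of another. The 9 members not found in the table were Cars, Hars, Hars2, Lars, Nars, Pars2, Rars, Vars and Wars.

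CACGTG, the E-box bound by MYC and MAX, stood in 4 of 13 cytosolic, 0 of 3 partner and 1 of 14 mitochondrial promoters, with a share of 7.15% over all promoters. Its matches are shown because 3 of the 5 genes, Aars, Iars and Tars, also hold the element above, with the E-box in capitals.
Aars (chr8:111033680-111033717, plus strand): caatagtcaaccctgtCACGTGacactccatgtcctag
Farsb (chr1:78488915-78488952, minus strand): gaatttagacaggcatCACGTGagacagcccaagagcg
Iars (chr13:49682045-49682082, plus strand): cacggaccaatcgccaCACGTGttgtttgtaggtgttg
Tars (chr15:11399618-11399655, minus strand): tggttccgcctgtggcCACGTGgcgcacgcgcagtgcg
Ears2 (chr7:122067044-122067081, minus strand): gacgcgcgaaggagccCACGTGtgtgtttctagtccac
Farsb had a log2 difference of 0.00 and its libraries overlapped, while the other genes shown separated downwards. So did 12 of all 20 cytosolic genes, 1 of the 15 tested mitochondrial genes and 20.5% of all genes tested. Whether the E-box bears on these levels was not tested.

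GCGCATGC, the core of the element of nuclear respiratory factor 1, a regulator of nuclear genes for mitochondrial proteins, stood in 3 of 14 mitochondrial promoters, 0 of 13 cytosolic and 0 of 3 partner ones, against 2.71% of all promoters. Its matches are shown as the counterpart in the mitochondrial genes, with the motif or its reverse complement GCATGCGC in capitals.
Rars2 (chr4:34614890-34614929, plus strand): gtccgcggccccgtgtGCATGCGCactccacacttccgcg
Vars2, first match (chr17:35667615-35667654, minus strand): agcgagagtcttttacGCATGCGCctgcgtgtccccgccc
Vars2, second match (chr17:35667589-35667628, minus strand): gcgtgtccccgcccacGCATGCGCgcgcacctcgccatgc
Wars2 (chr3:99141010-99141049, plus strand): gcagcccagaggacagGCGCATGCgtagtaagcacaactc
The log2 fold changes of these genes were 0.07, -0.14 and -0.15 for Rars2, Vars2 and Wars2, none of them called.

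Genes that act before, beside and after charging were read from lists of related function. The lists were chosen with earlier results of these data known, so their counts and medians are a description and not independent support. Of 14 tested genes of amino acid sensing and the stress response, 6 fell and 0 rose, where 2.78% of all genes tested fell and 2.41% rose, with a list median of -0.40 on the log2 scale against -0.01 over all genes. Atf4, the factor named above, had 307.0, 275.6 and 323.7 RPKM in siEwsr1 libraries, against 436.4 and 440.0 RPKM in siCtrl libraries (log2 fold change -0.53, SE 0.09, limma adjusted p = 0.0104). Trib3, a pseudokinase induced by Atf4, had 17.3, 15.2 and 25.0 RPKM in siEwsr1, against 53.5 and 54.6 RPKM in siCtrl libraries (log2 fold change -1.51, SE 0.16, limma adjusted p = 0.00181). In both genes all siEwsr1 libraries were below siCtrl, with siEwsr1 replicate 3 the nearest to it.

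Chac1, a glutathione-degrading enzyme, fell by 1.004 on the log2 scale, Ddit3, a stress transcription factor, by 0.87, Sesn2, a leucine sensor upstream of mTORC1, by 0.80, and Ppp1r15a, which directs dephosphorylation of eIF2α, by 0.53. Eif2ak4, the kinase that senses uncharged tRNA, had a log2 difference of 0.39 (SE 0.11, limma adjusted p = 0.0761). Asns, asparagine synthetase, was not tested because its decimal point could not be placed. Without siEwsr1 replicate 3, 8 genes of the list were called lower and 2 higher, where that fit called 13.0% of all genes lower and 12.9% higher. These members of the list are known in large part as Atf4 targets or regulators of its pathway. The falls of Atf4, Trib3 and the other called genes exceeded those of the synthetases. Whether the lower Atf4 level bears on the synthetase levels was not tested.

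**Figure D5:**
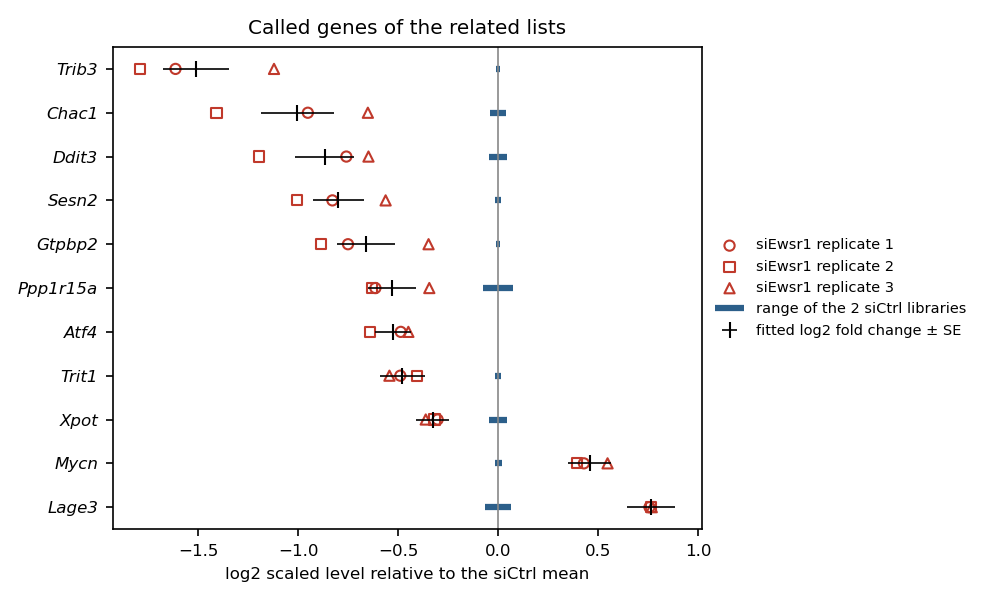
The 11 called genes of the related lists, as log2 scaled levels relative to the siCtrl mean in each siEwsr1 library (red symbols), with the range of the siCtrl libraries as a blue bar and the fitted log2 fold change ± SE in black. Lage3 and Mycn lie above 0 and the other 9 below, with Trib3 the farthest.

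In the lists closer to tRNA the called counts were near the shares over all genes tested, 2.78% lower and 2.41% higher. Of 26 tested genes of tRNA maturation, splicing and export 1 fell and 0 rose: Xpot, the nuclear export receptor of tRNA, had 90.3, 89.2 and 89.0 RPKM in siEwsr1 libraries, against 116.7 and 110.4 RPKM in siCtrl libraries (log2 fold change -0.33, SE 0.08, limma adjusted p = 0.0468). Its siEwsr1 libraries lay within a narrow range below siCtrl. Trpt1, Pop4 and Ssb had log2 differences of -0.47, 0.47 and 0.35 and were not called.

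Of 30 tested genes of anticodon and wobble modification 1 fell and 0 rose, beside 2.78% and 2.41% of all genes tested. The gene that fell was Trit1, which adds an isopentenyl group beside the anticodon, at -0.48 (SE 0.11, limma adjusted p = 0.0386). Trmu, which thiolates mitochondrial tRNA, and Pus3, a pseudouridine synthase, had log2 differences of -0.53 and 0.34 and were not called. Of 20 tested genes of editing, indirect charging and selenocysteine charging 0 fell and 1 rose, beside the same shares. The gene that rose was Lage3, a subunit of the KEOPS complex that modifies tRNA beside the anticodon, at 0.76 (SE 0.12, limma adjusted p = 0.00857). Gatb, a subunit of the mitochondrial amidotransferase, had a log2 difference of -0.49 and was not called. Without siEwsr1 replicate 3, limma called 3 lower and 6 higher among the maturation genes, 7 lower and 4 higher among the wobble modification genes, and 3 lower and 3 higher in the editing list. That fit called 13.0% of all genes lower and 12.9% higher, and several of these shares, such as 3 of 26 and 4 of 30, were near it.

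Downstream of charging, no test was made between the cytosolic and mitochondrial lists of elongation genes. Over all genes tested 2.78% were called lower and 2.41% higher, and 10.7% were higher at an unadjusted p under 0.05 by limma. Of 12 tested cytosolic genes 1 fell and 0 rose, Gtpbp2, a GTPase linked to ribosome stalling, at -0.66 (SE 0.15, limma adjusted p = 0.0305). Eef1a2 and Eef2, which deliver aminoacyl-tRNA and translocate the ribosome, had log2 differences of -0.32 and -0.31 and were not called, and 10 of the 12 were below 0, with a list median of -0.12. Of 10 tested mitochondrial genes 0 were called by limma or limma-voom, 2 were higher at an unadjusted p under 0.05, and all 10 log2 differences were above 0, with a median of 0.14. Guf1, Gfm1 and Mtif2, factors of mitochondrial elongation and initiation, had the largest, at 0.27, 0.19 and 0.18. Without siEwsr1 replicate 3, limma called 5 cytosolic elongation genes lower and 0 higher, and 0 mitochondrial ones lower and 3 higher, beside the 13.0% and 12.9% of all genes in that fit.

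Of 9 tested genes of the MYC family, whose products regulate many genes of translation, 0 fell and 1 rose. Over all genes tested 2.78% fell and 2.41% rose. Mycn, the family member typical of neuroblastoma, had 9.88, 9.64 and 11.03 RPKM in siEwsr1 libraries, against 7.33 and 7.57 RPKM in siCtrl libraries (log2 fold change 0.46, SE 0.11, limma adjusted p = 0.0394). All siEwsr1 libraries of Mycn were above siCtrl. Myc had 21.5, 21.9 and 24.4 RPKM in siEwsr1 libraries, against 27.3 and 22.6 RPKM in siCtrl libraries. Its log2 difference was -0.12 (SE 0.11, limma adjusted p = 0.542), and the groups overlapped. A link between the MYC family and the synthetase levels was not tested. Mga and Mxd1 had log2 differences of 0.34 and 0.32 and were not called. Without siEwsr1 replicate 3, limma called 0 genes of the family lower and 3 higher, beside the same 13.0% and 12.9%.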

How the data were processed

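The authors deposited a file per library with 54838 genes, whose unit is recorded here as other: the values behave as RPKM, and those of 1 or more lost their decimal point. Per the submitters' processing notes, STAR 2.5.2b, featureCounts 1.5.1, edgeR and GRCm38 were used. The decimal point was restored from the requirement that RPKM, exonic length (GENCODE M21) and library total give whole reads within 1e-06. It was restored in 26924 of 27255 genes above 0. The 320 genes with odds under 20 were left out of the tests, although Hand2, among them, is in the marker sum. For 602 genes, Hars, Lars and Nars among them, the length was solved from the values. The sums of recovered reads fell short of the library totals by at most 0.161%. The restoration and the fit were tested on simulated data, where genes changed by 10-fold were mostly misread. The settings of this step were adjusted after results were seen, in part so that Ewsr1 was kept.

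limma 3.58.1 (R 4.3.3) was fitted on log2(RPKM + 0.1), which understates changes of low genes, after trimmed-mean scaling, with robust moderation and a variance trend on read depth. That trend replaced one on RPKM level after the number of calls was seen and set beside that of an earlier analysis of these data. The test covered genes that reached 10 reads, scaled to the median library, in 2 or more libraries, with Benjamini-Hochberg adjustment over all of them. An exact permutation test of 3 against 2 libraries cannot give a p under 0.1 and was not used. Samples were grouped by title. Members and lists were chosen with earlier results of these data known. All members are named, with values per library for those called or among the 10 largest absolute fold changes, and of related lists every called gene and the 3 largest, except where a gene is not reported here. The 16 alternatives covered scaling, pseudocount, filters, model, decimal reading, replicate block and left-out libraries.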

Additional observations from a re-analysis of the deposited data

How the results depend on the processing

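Sars was called with library-total scaling, a pseudocount of 0.01, at least 50 reads, limma-voom, the replicate block or siEwsr1 replicate 3 left out, and not in the other 10 of 16 alternatives. The cytosolic and partner genes called lower numbered 0 with median-of-ratios scaling, a pseudocount of 1, no filter on low reads, no variance trend, the lowest decimal reading only or a variance trend on RPKM level (added after seeing the data), 2 with a pseudocount of 0.01 or at least 50 reads, and 3 with limma-voom. Leaving out a library gave 0 to 12 lower and 0 to 2 higher, and 0 to 3 mitochondrial genes lower. Over all genes, 203 were called lower and 160 higher with a pseudocount of 1, 36 and 20 with no filter, 0 and 0 with no variance trend, 127 and 101 with the RPKM-level trend, and 3 to 1881 and 3 to 1865 with a library left out. The cause of these shifts was not tested. The labels do not say whether replicate numbers pair the libraries. Deviations of same-numbered libraries from their group means correlated at 0.03 and -0.12. These values cannot decide it, since the deviations of the 2 siCtrl libraries mirror each other. Fitted with a replicate block, which leaves siEwsr1 replicate 3 with no partner, 7 cytosolic and partner genes were called lower and 1 higher, 2 mitochondrial genes lower, and 1701 genes lower and 1653 higher in all.

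The cytosolic median was -0.20 with the lowest decimal reading only, which drops genes, and -0.187 to -0.0755 with a library left out. The difference of the cytosolic and mitochondrial medians was -0.155 to 0.016 with a library left out, and turned positive without siCtrl replicate 1. Uncalled members near 0 changed sign: with a library left out Farsa ran over -0.112 to 0.0737, Farsb -0.0231 to 0.0612, Kars -0.013 to 0.0371, Rars -0.0362 to 0.0288, Vars -0.194 to 0.0655, Aimp1 -0.0379 to 0.0268, Aars2 -0.125 to 0.144, Cars2 -0.178 to 0.0991, Mars2 -0.158 to 0.0358, Nars2 -0.0269 to 0.048 and Pars2 -0.286 to 0.0938. Farsb was at 0.012 and Kars at 0.007 with median-of-ratios scaling, Farsb at 0.0092 with the lowest decimal reading, and Nars2 at -0.0102 with library-total scaling. In the replicate block Farsb was at 0.0612, Rars at 0.0288, Aimp1 at 0.0268 and Aars2 at -0.125.

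Pars2, with 78 reads in siEwsr1 replicate 1, rested on the fewest reads of the tested members. Changes near 10-fold can be missed by the decimal restoration. Reads in bases shared by overlapping genes could not be separated.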
